A study of Mus musculus with 30 samples.

Results

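Integrins and the proteins of focal adhesions form the link between the extracellular matrix and the actin cytoskeleton. The 38 genes examined here were taken by symbol from a list of integrin subunits and focal adhesion proteins, and comprise 16 integrin subunits, 21 cytoplasmic adhesion proteins and the hyaluronan receptor Cd44. Of these, 35 were among the 12016 genes of the count table and were tested: 13 integrin subunits, all 21 cytoplasmic proteins and Cd44. The integrin subunits Itga4, Itga8 and Itga9 did not reach the level of 1 read per 1000000 in the 20 libraries that the count table asked for, and only their levels are given. Itga8 was above that level in all 10 libraries of day 0.

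3T3-L1, the line used for every library, is an established mouse fibroblast line and a common model of preadipocytes. All cells were grown in the same preadipocyte medium and transfected while sub-confluent, on day −3 counted to the start of differentiation. The cells received 50 nM of an siRNA against Kdm5c, an X-linked gene for a demethylase of histone H3 lysine 4, or 50 nM of a scrambled siRNA without a target (scramble in the text). RNA was collected on day −2 (24 h), day −1 (48 h) and day 0 (72 h). This gave 6 groups of 5 libraries, 30 in all: Kdm5c siRNA and scramble on each day. A single cell line and a single Kdm5c siRNA label were used, and no group without siRNA was analysed here. The labels do not say whether replicates were separate cultures, so the p-values rest on the spread between libraries of a group, part or all of which may be technical.

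An integrin is a dimer of an alpha and a beta subunit that binds matrix outside the cell, and the alpha subunit largely sets which matrix protein is bound. Inside the cell, talin and kindlin bind the beta tail and switch the receptor on, and vinculin, alpha-actinin and filamin tie it to actin. Kinase and scaffold proteins such as FAK, paxillin and p130Cas carry the signal onward. In preadipocytes, matrix contact and cell shape are known to bear on differentiation, and fibronectin receptors give way to laminin receptors as fat cells form.

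Kdm5c, the targeted transcript, was lower in every Kdm5c siRNA library than in every scramble library of its day. With Kdm5c siRNA it averaged 25.5 ± 1.29 CPM (reads per 1000000 reads of a library) against 157 ± 1.75 in scramble on day −2. It averaged 35.6 ± 3.57 CPM with Kdm5c siRNA against 189 ± 2.91 in scramble on day −1, and 53.3 ± 2.37 with Kdm5c siRNA against 212 ± 4.84 in scramble on day 0 (SD, n = 5 in every group). The share left was 16.2%, 18.9% and 25.2%, and the two-sided exact permutation test gave p = 0.00794 on each day, the lower limit for groups of 5 and 5. Of 8 fibroblast markers, 7 were in the count table, and Cd34 was not. Their summed level was 21890 to 32230 CPM, mostly Col1a1 and Col1a2. Of the 5 fat cell markers, Fabp4 alone was in the count table, their sum was 9.73 to 35.5 CPM (28.7 to 35.5 with Kdm5c siRNA against 22 to 28.8 in scramble on day 0, overlapping), and Lep was at 0 reads in 5 of the 6 groups. The 4 endothelial markers summed to 0.982 to 2.76 CPM, the 4 epithelial ones to at most 0.391 CPM with Epcam at 0, and the 4 skeletal muscle ones, mostly Des, to 1.17 to 6.1 CPM with Myod1 at 0. Of 5 macrophage or leukocyte markers, 2 were in the count table, Csf1r and Cd68. Adgre1 was at 0 in all groups and Itgam on day −1 and day 0. The macrophage sum was 6.37 to 9.12 CPM with Kdm5c siRNA against 4.82 to 7.31 in scramble on day −2, 4.12 to 5.07 with Kdm5c siRNA against 3.29 to 4.09 in scramble on day −1, and 3.68 to 5.52 with Kdm5c siRNA against 2.41 to 3.31 in scramble on day 0, so that it separated by siRNA on day −1 and day 0. Of 4 pericyte or smooth muscle markers, 2 were in the count table, and their sum, nearly all Acta2, moved with the siRNA. That sum was 2742 to 2838 CPM with Kdm5c siRNA against 2406 to 2652 in scramble on day −2, 1006 to 1198 against 848 to 934 on day −1, and 674 to 733 against 507 to 567 on day 0. Rgs5 and Myh11 of that list stayed below 1 CPM in every library. The part of the macrophage and smooth muscle signals in the results that follow was not tested. Replicate 2 of Kdm5c siRNA on day −2 stood furthest from its group, with a mean squared log2 deviation of 0.0162 against at most 0.0118 in the other 29 libraries. In scramble day −1, replicates 1 to 3 deviated from replicates 4 and 5, with correlations of −0.49 to −0.38 between the 2 sets. Pairs of libraries in other groups reached such values too. The correlation was −0.56 between replicates 1 and 5 of scramble day −2, and −0.48 between replicates 1 and 2 of scramble day 0.

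The 35 tested transcripts of integrins and focal adhesion proteins were more often higher than lower after Kdm5c siRNA, by small amounts. Their list was chosen with earlier results of these data known, so the counts that follow describe this list only. On day −2, 17 of the 35 were higher and 2 were lower, Flnc and Tns2, while 11.3% of all 12016 genes were called higher and 11.9% lower (23.2% in either direction) in the edgeR test. On day −1, 20 were higher and 1, Flnc, was lower, beside 18.8% and 16.8% of all genes (35.6% in either direction). On day 0, 23 were higher and 3 were lower, Flnc, Tln2 and Tns3, beside 19.3% and 16.2% of all genes (35.5%). As shares of the 35, the higher calls came to 48.6%, 57.1% and 65.7%.

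The median log2 fold change of the 35 was 0.08 on day −2, 0.11 on day −1 and 0.13 on day 0, against 0.00 over all genes on each day. Of the 13 integrin subunits, 5, 8 and 9 were called higher on the 3 days and 0 were called lower. Of the 21 cytoplasmic proteins, 11, 11 and 13 were higher and 2, 1 and 3 lower. The changes were small: 0 members passed 1.5-fold on day −2, 3 did on day −1 (Itga2, Itga3 and Itgb8) and 2 on day 0 (Itga2 and Itga3). Itga2 and Itgb8 were at low levels, and the share of all genes past 1.5-fold was not counted. The Kdm5c siRNA and scramble libraries did not overlap in 17, 20 and 19 members on the 3 days, beside 16.1%, 22.3% and 21.7% of all genes. In a bulk sample, a different share of cells with a transcript and a different amount per cell cannot be told apart.

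Called higher on all 3 days were 13 members: the integrins Itga3, Itgav, Itgb1 and Itgb3, Cd44, and the cytoplasmic Fermt2, Vcl, Actn1, Flna, Bcar1, Zyx, Lpp and Pdlim7. Of all 12016 genes, 5.32% were called higher and 5.0% lower on all 3 days. Flnc was the only member called lower on all 3 days, Tns3 was the only one called in both directions, and Itga1, Itga11, Ilk and Vasp were not called on any day. Without replicate 2 of Kdm5c siRNA on day −2, 15 members were called higher and 1 lower on that day. With scramble day −1 reduced to replicates 4 and 5, 20 were called higher and 1 lower on day −1, while the calls over all genes dropped to 2568 of 12016, against 4272 with all 5 replicates.

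**Figure D1:**
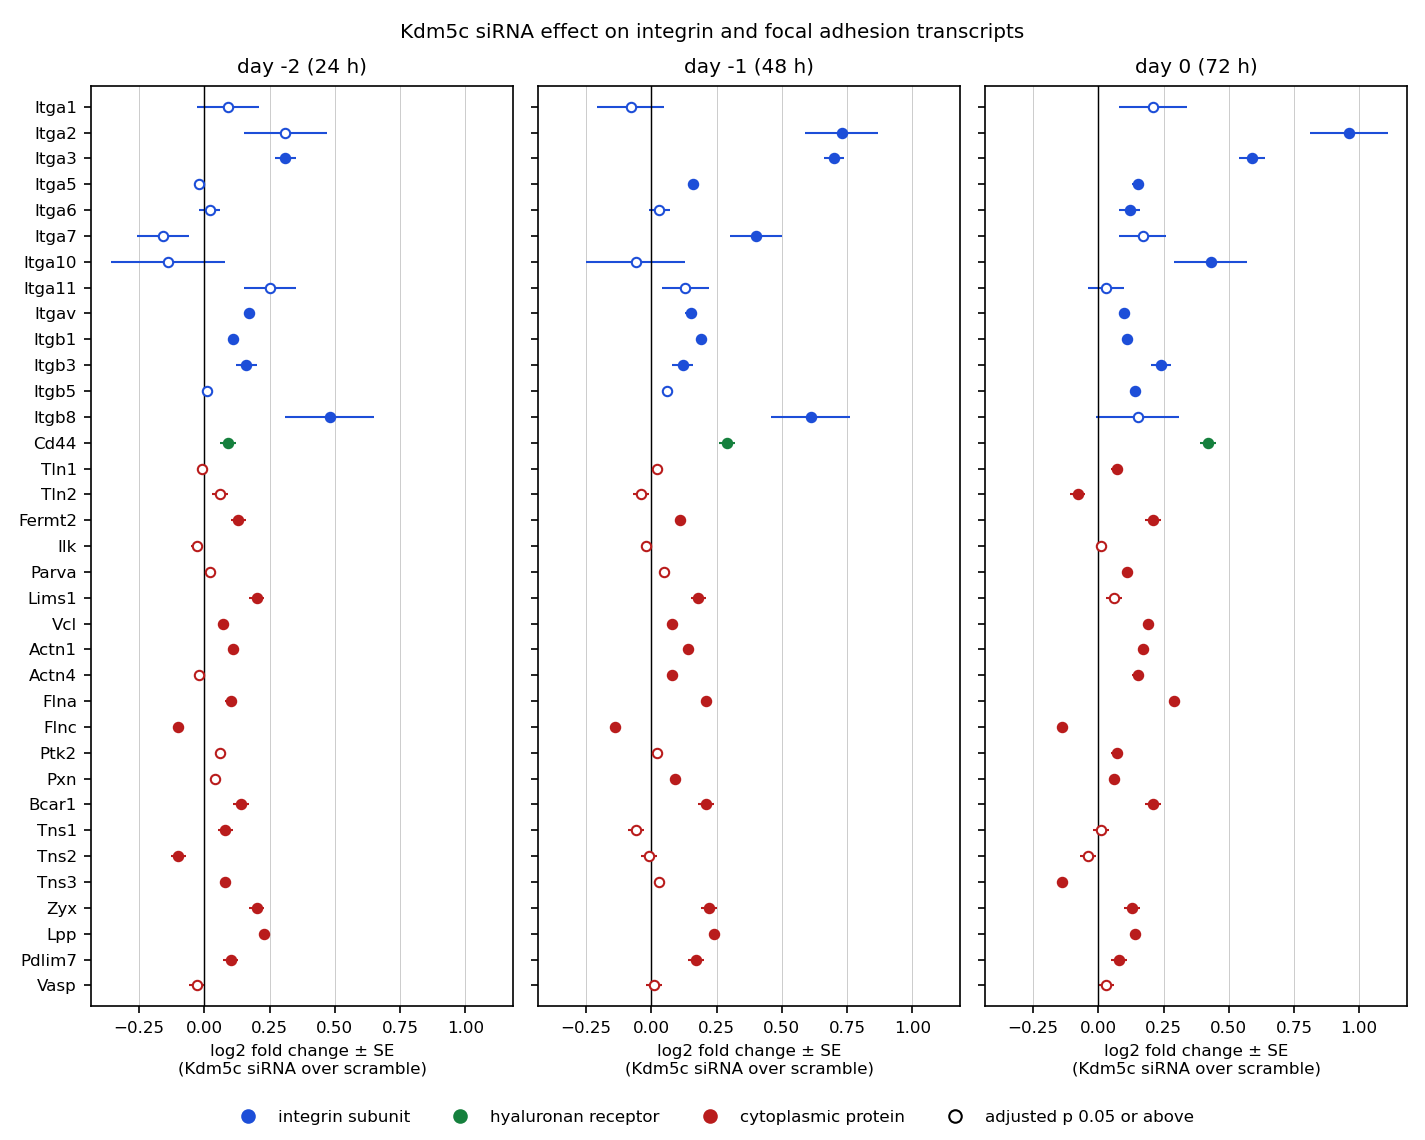
Log2 fold change of Kdm5c siRNA over scramble with its standard error for the 35 tested members on day −2, day −1 and day 0; filled points were called by edgeR at an adjusted p under 0.05. Most filled points lie right of 0 on each day, Flnc lies left of 0 on all 3, and Itga2 reaches 0.96 on day 0.

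Read per kilobase of exon, which allows genes to be compared, the alpha subunits of 3T3-L1 cells were mostly Itga5, the fibronectin receptor subunit, and Itgav, the vitronectin receptor subunit. Itga5 made up 65.1 ± 0.617% of the summed alpha CPM per kb with Kdm5c siRNA and 68.1 ± 0.457% in scramble on day −2, and 55.7 ± 1.11% with Kdm5c siRNA and 55.5 ± 1.14% in scramble on day 0. Itgav made up 18.6 ± 0.281% with Kdm5c siRNA and 17.1 ± 0.37% in scramble on day −2, and 25.9 ± 0.827% with Kdm5c siRNA and 26.7 ± 0.563% in scramble on day 0. The next subunits on day −2 were Itga3, at 8.22 ± 0.398% with Kdm5c siRNA and 6.81 ± 0.167% in scramble, and Itga6, at 6.26 ± 0.214% with Kdm5c siRNA and 6.38 ± 0.275% in scramble. On day 0 the third place was held by Itga11, a collagen receptor subunit, with 7.49 ± 0.595% under Kdm5c siRNA and 8.11 ± 1.06% in scramble.

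The summed alpha level was 208 ± 5.2 CPM per kb with Kdm5c siRNA and 202 ± 1.27 in scramble on day −2, 168 ± 2.34 with Kdm5c siRNA and 148 ± 1.6 in scramble on day −1, and 146 ± 1.62 with Kdm5c siRNA and 132 ± 2.43 in scramble on day 0. Among the beta subunits, Itgb1, the common partner of most alpha subunits, held 82.2 ± 0.519% of the beta sum with Kdm5c siRNA and 81.4 ± 0.649% in scramble on day −2, and 62.6 ± 0.81% with Kdm5c siRNA and 63.4 ± 0.817% in scramble on day 0. Itgb5 held 14 ± 0.497% with Kdm5c siRNA and 14.9 ± 0.478% in scramble on day −2, and 29.7 ± 0.757% with Kdm5c siRNA and 29.5 ± 0.85% in scramble on day 0. The shares of Itga5, Itgav, Itgb1 and Itgb5 differed more between day −2 and day 0 than between the siRNAs.

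**Figure D2:**
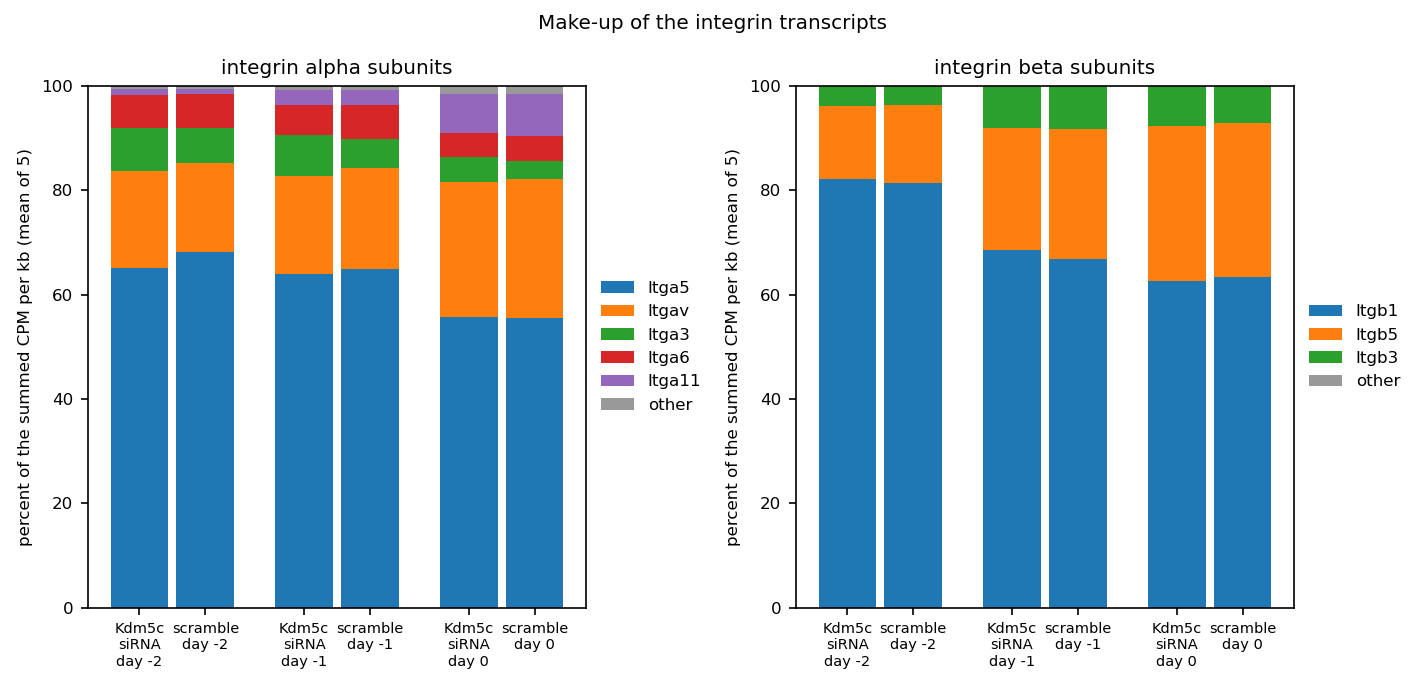
Mean share (percent, n = 5) of subunits in the summed CPM per kb of the integrin alpha subunits (left) and beta subunits (right), with Kdm5c siRNA left of scramble on each day. Itga5, Itgav, Itga3, Itga6, Itga11, Itgb1, Itgb5 and Itgb3 are drawn singly, and the remaining subunits of each kind are pooled as other. Itga5 and Itgb1 take the largest share in every group, and Itga11, Itgav, Itgb3 and Itgb5 take more on day 0 than on day −2.

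The laminin receptor subunits Itga3, Itga6 and Itga7 all pair with Itgb1. Itga3 was higher on all 3 days. On day −2 it had 94.9, 95.7, 96.1, 100 and 101 CPM with Kdm5c siRNA, against 78.8, 79.7, 80.4, 78.2 and 76.5 CPM in scramble. On day −1 it had 77.1, 72.4, 72.2, 74.9 and 80.6 CPM with Kdm5c siRNA, against 44.5, 44.4, 43.6, 49.6 and 50.9 CPM in scramble. The day 0 values were 40.1, 39.6, 40.4, 37.9 and 41 CPM with Kdm5c siRNA, against 28.3, 23.5, 28.5, 25.9 and 25.8 CPM in scramble. The groups did not overlap on any day, and the level dropped with time under both siRNAs. Itga3 was higher by 0.31 on the log2 scale on day −2 (SE 0.04, edgeR adjusted p = 1.17e-07), by 0.70 on day −1 (adjusted p = 1.94e-15, SE 0.04) and by 0.59 on day 0 (adjusted p = 2.5e-12, SE 0.05). With scramble day −1 reduced to replicates 4 and 5, the day −1 value was 0.59 (adjusted p = 7.79e-11). Of the 13 integrin subunits tested, Itga3 had the smallest adjusted p on each day, and the promoter at the upstream one of its 2 RefSeq starts is shown for that reason. It holds none of the 3 motifs described at the end, so no base is in capitals.
Itga3 (GRCm38.p6, chr11:95076665-95076964, minus strand): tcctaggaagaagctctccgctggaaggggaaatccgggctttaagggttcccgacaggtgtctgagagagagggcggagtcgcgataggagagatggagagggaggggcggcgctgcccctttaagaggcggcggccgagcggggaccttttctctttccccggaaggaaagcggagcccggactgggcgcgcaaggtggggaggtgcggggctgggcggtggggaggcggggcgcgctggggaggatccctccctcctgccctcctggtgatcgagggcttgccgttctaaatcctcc

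Itga6 had 117 ± 4.27 CPM with Kdm5c siRNA and 116 ± 4.45 in scramble on day −2, 88.4 ± 4.55 with Kdm5c siRNA and 86.6 ± 4.93 in scramble on day −1, and 61.2 ± 1.19 with Kdm5c siRNA and 56.6 ± 3.88 in scramble on day 0. It was called on day 0 alone, at a log2 fold change of 0.12 (SE 0.04, edgeR adjusted p = 0.0254). That call was lost without any 1 of scramble replicates 2, 4 and 5 or Kdm5c siRNA replicate 1 of day 0 (adjusted p 0.0539 to 0.0916). Itga7, the laminin receptor subunit known from muscle, was far lower in level. On day −1 it had 4.36, 3.89, 3.93, 3.62 and 3.44 CPM with Kdm5c siRNA, against 2.9, 2.7, 3.26, 2.58 and 3.1 CPM in scramble. On day −2 it had 3.29, 2.75, 2.89, 3.23 and 3.12 CPM with Kdm5c siRNA, against 3.51, 3.76, 3.18, 2.98 and 3.63 CPM in scramble. On day 0 the values were 4.56, 5.2, 6.02, 4.29 and 4.42 CPM with Kdm5c siRNA, against 4.14, 4.61, 4.26, 4.51 and 4.35 CPM in scramble. The groups separated on day −1 and overlapped on the other 2 days. Its log2 fold change was −0.16 (adjusted p = 0.262, SE 0.10) on day −2, 0.40 (adjusted p = 0.00124, SE 0.10) on day −1 and 0.17 (adjusted p = 0.139, SE 0.09) on day 0.

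The collagen receptor subunits are Itga1, Itga2, Itga10 and Itga11, again with Itgb1 as partner. Itga2 rose on day −1 and day 0. It had 0.995, 1.46, 1.22, 1.3 and 1.25 CPM with Kdm5c siRNA on day −2, against 0.985, 0.785, 0.794, 1.46 and 1.06 CPM in scramble. On day −1 these were 1.71, 2.06, 2.23, 2.16 and 2.08 CPM with Kdm5c siRNA, against 1.29, 0.982, 1.41, 1.24 and 1.27 CPM in scramble. On day 0 they were 1.6, 1.8, 1.98, 1.54 and 2.03 CPM with Kdm5c siRNA, against 0.701, 1.03, 1.04, 0.796 and 1.06 CPM in scramble. The groups overlapped on day −2 and separated on day −1 and day 0. The day −1 log2 fold change was 0.73 (SE 0.14, edgeR adjusted p = 6.17e-05) and the day 0 value 0.96 (adjusted p = 5.58e-06, SE 0.15), while the day −2 value of 0.31 was not called (adjusted p = 0.162). These levels rest on 21 to 70 reads a library.

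Itga1 lies beside Itga2 on chromosome 13 and on the same strand, at 114953096 to 115101964 in GRCm38, with Itga2 at 114833081 to 114932100. Itga1 was not called on any day, with log2 fold changes of 0.09, −0.08 and 0.21 on the 3 days (adjusted p = 0.626, 0.654 and 0.217). Itga10, best known from cartilage, had 3.85, 3.82, 4.67, 4.08 and 4.71 CPM with Kdm5c siRNA on day 0, against 3.27, 3.69, 2.15, 3.28 and 3.29 CPM in scramble. The groups did not overlap that day, and scramble replicate 3 lay far below the other 4. On day −2 it averaged 0.943 ± 0.2 CPM with Kdm5c siRNA and 1.04 ± 0.174 in scramble, and on day −1 1.32 ± 0.253 with Kdm5c siRNA and 1.38 ± 0.47 in scramble, and the groups overlapped on both days. The day 0 log2 fold change of 0.43 (SE 0.14, edgeR adjusted p = 0.0129) was not called without scramble replicate 3 (adjusted p = 0.0584). Itga10 shares 33.5% of its exon bases with a second gene model on the same strand, Gm42957, which averaged 0.0345 CPM. Itga11 had 13.6 ± 0.761 CPM with Kdm5c siRNA and 11.4 ± 0.704 in scramble on day −2, groups that did not overlap, but the log2 fold change of 0.25 was not called (adjusted p = 0.0794, SE 0.10). On day 0 it had 56.2 ± 4.97 CPM with Kdm5c siRNA and 55 ± 6.39 in scramble, a log2 difference of 0.03 (adjusted p = 0.757, SE 0.07).

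Itga5, Itgav and Itga8 bind the RGD sequence of fibronectin, vitronectin and related proteins. Itga5 had 668 ± 22 CPM with Kdm5c siRNA and 680 ± 7.75 in scramble on day −2, 531 ± 8.74 with Kdm5c siRNA and 475 ± 8.84 in scramble on day −1, and 402 ± 6.94 with Kdm5c siRNA and 363 ± 13.9 in scramble on day 0. Its log2 fold changes were −0.02 (adjusted p = 0.558), 0.16 (adjusted p = 6.89e-07) and 0.15 (adjusted p = 3.05e-06), with an SE of 0.02 each. Itgav had 416 ± 10.6 CPM with Kdm5c siRNA and 371 ± 8.99 in scramble on day −2, 340 ± 8.71 with Kdm5c siRNA and 308 ± 6.01 in scramble on day −1, and 407 ± 14 with Kdm5c siRNA and 380 ± 7.63 in scramble on day 0. It was called higher on each day, by 0.17, 0.15 and 0.10 on the log2 scale. Itga8, the RGD receptor subunit outside the count table, had 0.275 to 0.583 CPM with Kdm5c siRNA and 0.176 to 0.556 in scramble on day −2. On day 0 it had 2.12 to 3.15 CPM with Kdm5c siRNA and 2.64 to 4.97 in scramble, overlapping ranges, and it was not tested. Itga9 stayed between 0.0762 and 0.483 CPM in all 30 libraries. Itga4, a subunit best known from leukocytes, had 0 reads in every Kdm5c siRNA library and at most 1 read in a scramble library, which is within the limit of 3 reads that a count of 0 allows.

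Of the beta subunits, Itgb1 was called higher on each day. It averaged 1120 ± 22.9 CPM with Kdm5c siRNA and 1042 ± 30.1 in scramble on day −2, 785 ± 19.8 with Kdm5c siRNA and 689 ± 7.91 in scramble on day −1, and 697 ± 17 with Kdm5c siRNA and 649 ± 13.7 in scramble on day 0. The log2 fold changes were 0.11, 0.19 and 0.11 (SE 0.02 each), and the groups did not overlap on any day. Itgb3, the beta subunit of the vitronectin receptor with Itgav, had 74.5 ± 2.32 CPM with Kdm5c siRNA and 67 ± 2.61 in scramble on day −2, 132 ± 6.89 with Kdm5c siRNA and 121 ± 9.01 in scramble on day −1, and 123 ± 1.28 with Kdm5c siRNA and 104 ± 2.97 in scramble on day 0. Its log2 fold changes were 0.16, 0.12 and 0.24 (SE 0.04 each, edgeR adjusted p = 0.00356, 0.00769 and 4.6e-06). The day −1 value was 0.23 with scramble reduced to replicates 4 and 5 (adjusted p = 0.000104). Itgb5, another partner of Itgav, was called on day 0 alone, with 288 ± 4.33 CPM under Kdm5c siRNA and 263 ± 7.3 in scramble and a log2 difference of 0.14 (adjusted p = 2e-05, SE 0.02).

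Itgb8, a beta subunit known for activating latent TGF-beta with Itgav, was at a low level. On day −2 it had 1.2, 1.25, 1.41, 1.85 and 1.33 CPM with Kdm5c siRNA, against 0.919, 1.08, 1.09, 1.1 and 0.88 CPM in scramble. On day −1 it had 2.22, 1.83, 2.02, 1.71 and 2.61 CPM with Kdm5c siRNA, against 1.47, 1.54, 1.38, 1.14 and 1.3 CPM in scramble. On day 0 it had 1.86, 1.59, 1.03, 1.68 and 2.14 CPM with Kdm5c siRNA, against 1.37, 1.33, 1.52, 1.36 and 1.94 CPM in scramble. The groups were apart on day −2 and day −1 and overlapped on day 0. The log2 fold changes were 0.48 (SE 0.17, edgeR adjusted p = 0.0423), 0.61 (adjusted p = 0.00151, SE 0.15) and 0.15 (adjusted p = 0.492, SE 0.16). The day −2 call was lost without any 1 of the 5 scramble libraries or of Kdm5c siRNA replicates 3, 4 and 5 (adjusted p 0.0506 to 0.167). That call was lost as well without a filter on low counts and under limma on log2(CPM + 2).

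**Figure D3:**
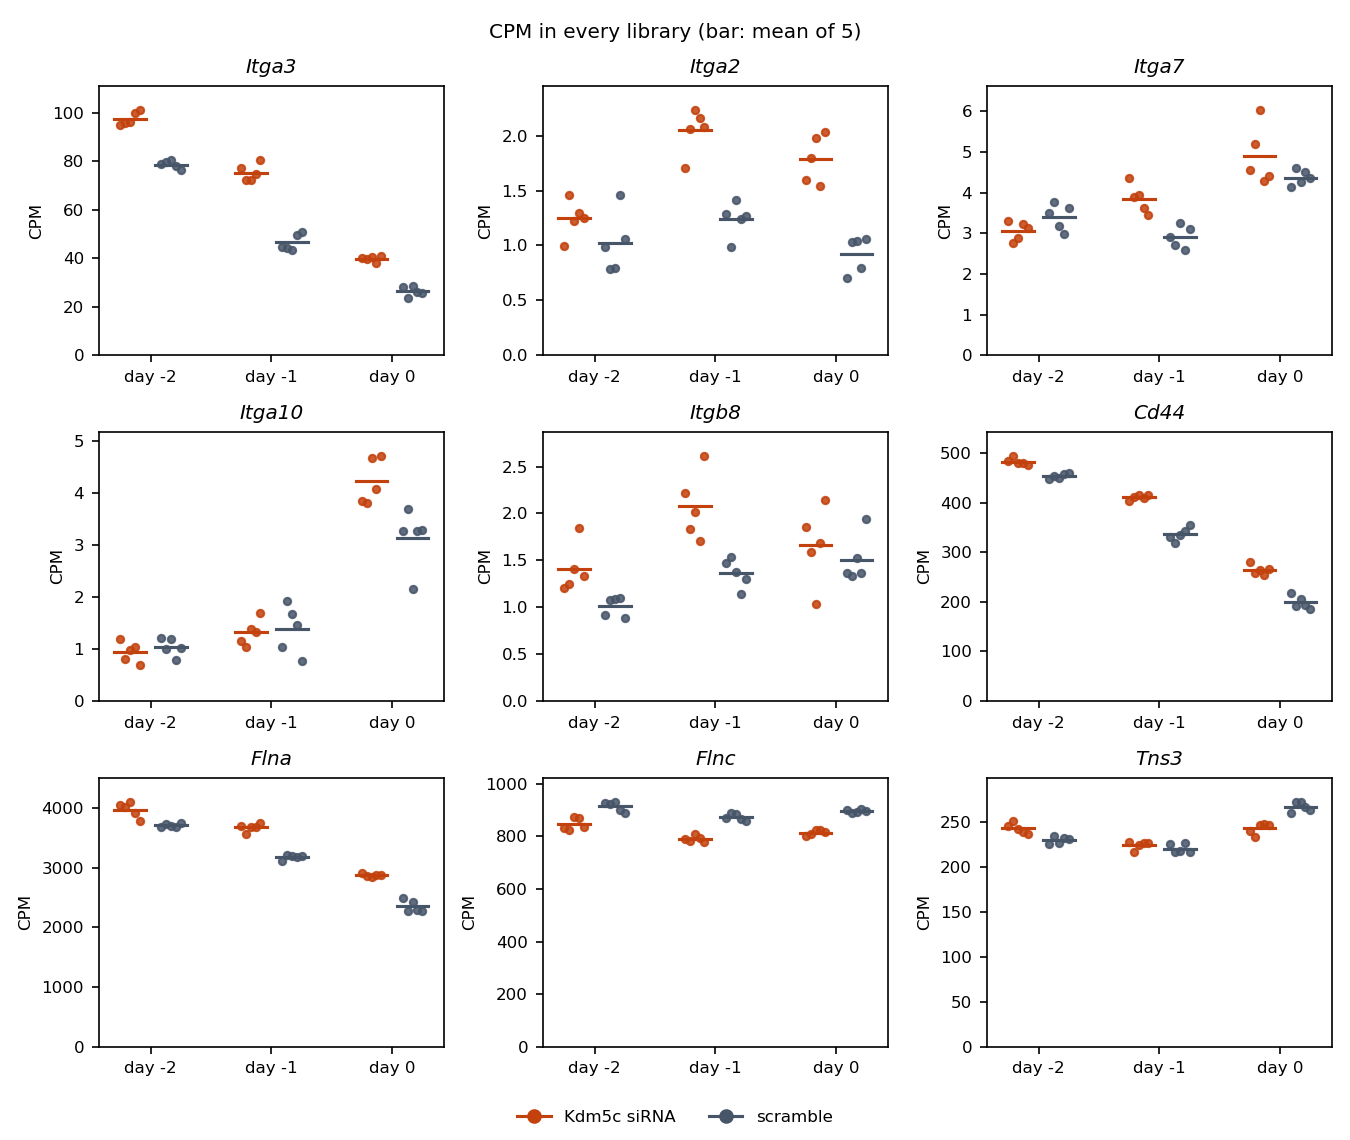
CPM of 9 members in each of the 30 libraries, with Kdm5c siRNA left of scramble on each day; points are libraries and lines are means of 5. Itga3, Cd44 and Flna lie higher with Kdm5c siRNA on every day without overlap, Flnc lies lower on every day, and Tns3 lies higher on day −2 and lower on day 0.

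Cd44 is not an integrin; it binds hyaluronan and is tied to the cell cortex by ERM proteins. It had 484, 494, 480, 481 and 476 CPM with Kdm5c siRNA on day −2, against 449, 455, 450, 459 and 460 CPM in scramble. On day −1 the values were 404, 411, 415, 410 and 415 CPM with Kdm5c siRNA, against 332, 319, 335, 344 and 356 CPM in scramble. On day 0 they were 280, 258, 264, 255 and 267 CPM with Kdm5c siRNA, against 218, 192, 206, 193 and 186 CPM in scramble. All Kdm5c siRNA libraries lay above all scramble libraries on each day. The log2 fold change was 0.09 on day −2 (SE 0.03, edgeR adjusted p = 0.0176), 0.29 on day −1 (adjusted p = 1.03e-09, SE 0.03) and 0.42 on day 0 (adjusted p = 4.25e-13, SE 0.03). The day −2 call was lost without replicate 2 of Kdm5c siRNA, the library furthest from its group (adjusted p = 0.0516).

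Among the cytoplasmic proteins, the 2 filamins moved in opposite directions. Flna, the filamin of most cells, which crosslinks actin and binds integrin beta tails, had 4054, 4013, 4099, 3911 and 3777 CPM with Kdm5c siRNA on day −2, against 3684, 3729, 3697, 3678 and 3756 CPM in scramble. On day −1 it had 3701, 3560, 3684, 3679 and 3756 CPM with Kdm5c siRNA, against 3106, 3214, 3199, 3184 and 3188 CPM in scramble. On day 0 it had 2918, 2863, 2848, 2881 and 2871 CPM with Kdm5c siRNA, against 2485, 2271, 2427, 2288 and 2281 CPM in scramble. The groups did not overlap on any day, and on day −2 the lowest Kdm5c siRNA library was close to the highest scramble library. Its log2 fold change was 0.10 on day −2 (SE 0.02, edgeR adjusted p = 0.000624), 0.21 on day −1 (adjusted p = 2.06e-09, SE 0.02) and 0.29 on day 0 (adjusted p = 1.21e-12, SE 0.02). Flna lies on the X chromosome, as Kdm5c does.

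Flnc, the filamin best known from striated muscle, had 833, 823, 875, 870 and 835 CPM with Kdm5c siRNA on day −2, against 928, 923, 930, 900 and 889 CPM in scramble. On day −1 it had 790, 783, 808, 795 and 780 CPM with Kdm5c siRNA, against 870, 890, 883, 864 and 857 CPM in scramble. On day 0 it had 801, 807, 822, 822 and 818 CPM with Kdm5c siRNA, against 898, 888, 892, 903 and 896 CPM in scramble. All Kdm5c siRNA libraries lay below all scramble libraries on each day. Flnc fell by 0.10, 0.14 and 0.14 on the log2 scale (SE 0.02 each, edgeR adjusted p = 5.42e-05, 2.06e-07 and 4.12e-07). Per kilobase, Flna made up 82.4 ± 0.56% of the 2 filamins with Kdm5c siRNA and 80.2 ± 0.403% in scramble on day −2, 82.3 ± 0.339% with Kdm5c siRNA and 78.5 ± 0.279% in scramble on day −1, and 77.9 ± 0.331% with Kdm5c siRNA and 72.4 ± 0.832% in scramble on day 0. The promoters of this pair are shown because their transcripts moved apart on all 3 days; capitals mark CATTCC, the reverse complement of the core word GGAATG bound by TEAD factors, which both carry.
Flna (GRCm38.p6, chrX:74246485-74246784, minus strand): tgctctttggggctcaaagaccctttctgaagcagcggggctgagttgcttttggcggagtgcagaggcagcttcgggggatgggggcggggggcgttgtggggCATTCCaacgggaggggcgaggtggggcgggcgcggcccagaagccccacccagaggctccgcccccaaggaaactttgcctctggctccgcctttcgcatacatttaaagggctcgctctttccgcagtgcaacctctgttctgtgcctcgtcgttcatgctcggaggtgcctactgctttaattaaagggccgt
Flnc (GRCm38.p6, chr6:29433006-29433305, plus strand): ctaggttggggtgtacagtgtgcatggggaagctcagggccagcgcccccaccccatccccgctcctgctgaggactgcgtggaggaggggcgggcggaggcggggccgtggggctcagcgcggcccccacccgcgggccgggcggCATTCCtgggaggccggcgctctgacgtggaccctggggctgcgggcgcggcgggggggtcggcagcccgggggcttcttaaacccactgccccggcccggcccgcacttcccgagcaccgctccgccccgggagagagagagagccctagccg

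The integrin activators are the talins and kindlin. Tln1, the main talin, had 889 ± 14.7 CPM with Kdm5c siRNA and 896 ± 9.03 in scramble on day −2, and 657 ± 6 with Kdm5c siRNA and 626 ± 10.7 in scramble on day 0. It was called on day 0 alone, at 0.07 on the log2 scale (SE 0.02, edgeR adjusted p = 0.000455). Tln2, the second talin, had 87.2 ± 2.42 CPM with Kdm5c siRNA and 92.4 ± 3.61 in scramble on day 0 and fell by 0.08 (adjusted p = 0.0169, SE 0.03). That call was lost without scramble replicate 3 or without Kdm5c siRNA replicate 1 or 4 of day 0 (adjusted p 0.0541 to 0.0787). Fermt2, kindlin-2, was called higher on each day, by 0.13, 0.11 and 0.21 (SE 0.03, 0.02 and 0.03), with 116 ± 2.19 CPM under Kdm5c siRNA and 101 ± 3.52 in scramble on day 0.

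ILK, PINCH and parvin form a complex on the beta tail. Ilk was not called on any day, with log2 fold changes of −0.03, −0.02 and 0.01 (adjusted p = 0.27, 0.447 and 0.644). Its exons overlap those of Taf10 on the opposite strand over 76.7% of their bases, and the strand setting of the counter is not given in the sources used here. Taf10 averaged 46.3 CPM and Ilk 146 CPM. Lims1, which encodes PINCH-1, was called higher on day −2, with 119 ± 2.43 CPM under Kdm5c siRNA and 103 ± 2.79 in scramble and a log2 fold change of 0.20 (SE 0.03, edgeR adjusted p = 1.21e-06). It was higher by 0.18 on day −1 (adjusted p = 3.56e-06, SE 0.03), and the day 0 value of 0.06 was not called (adjusted p = 0.0944). Parva, alpha-parvin, was called on day 0 alone, with 206 ± 2.96 CPM under Kdm5c siRNA and 192 ± 4.27 in scramble and a log2 difference of 0.11 (adjusted p = 0.0001, SE 0.02).

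Vinculin and the alpha-actinins connect talin and integrins to actin. Vcl, vinculin, was called on each day and had 378 ± 4.2 CPM with Kdm5c siRNA and 332 ± 13.5 in scramble on day 0, with log2 fold changes of 0.07, 0.08 and 0.19 (SE 0.02 each, edgeR adjusted p = 0.00752, 0.00144 and 5.63e-09). Actn1, alpha-actinin-1, had 1179 ± 16.1 CPM with Kdm5c siRNA and 1095 ± 9.09 in scramble on day −2, 871 ± 7.86 with Kdm5c siRNA and 793 ± 6.24 in scramble on day −1, and 684 ± 8.45 with Kdm5c siRNA and 608 ± 18.2 in scramble on day 0. It was called on each day, at 0.11, 0.14 and 0.17. Actn4, alpha-actinin-4, had 956 ± 9.34 CPM with Kdm5c siRNA and 970 ± 7.75 in scramble on day −2 and was not called there (−0.02, adjusted p = 0.563). It was higher by 0.08 on day −1 (adjusted p = 0.00149), which was not called with scramble reduced to replicates 4 and 5 (0.05, adjusted p = 0.115), and by 0.15 on day 0 (adjusted p = 5.56e-08). The exons of Vcl overlap those of Ap3m1 on the opposite strand over 25.5% of their bases. The Vcl promoter is shown as an example that holds 2 of the 3 motifs searched, and the Actn4 promoter, not shown, also holds 2. In the Vcl sequence, capitals mark, from 5′ to 3′, a CArG box, the site of serum response factor, and GGAATG.
Vcl (GRCm38.p6, chr14:20929148-20929447, plus strand): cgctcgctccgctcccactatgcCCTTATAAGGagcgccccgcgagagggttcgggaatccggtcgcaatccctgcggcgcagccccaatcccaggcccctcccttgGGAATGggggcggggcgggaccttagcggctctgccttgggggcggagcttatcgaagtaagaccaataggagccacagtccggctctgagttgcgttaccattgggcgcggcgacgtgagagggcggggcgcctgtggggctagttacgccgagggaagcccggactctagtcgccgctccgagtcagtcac

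Of the signalling proteins, Bcar1, the scaffold p130Cas, was called higher on each day. It had 286 ± 5.96 CPM with Kdm5c siRNA and 260 ± 6.25 in scramble on day −2, 194 ± 3.42 with Kdm5c siRNA and 168 ± 8.8 in scramble on day −1, and 153 ± 2.27 with Kdm5c siRNA and 132 ± 6.59 in scramble on day 0, with log2 fold changes of 0.14, 0.21 and 0.21 (SE 0.03 each). Ptk2, focal adhesion kinase, was called on day 0 alone, at 0.07 (SE 0.02, edgeR adjusted p = 0.0243), with 134 ± 4.88 CPM under Kdm5c siRNA and 128 ± 4.23 in scramble. That call was lost without scramble replicate 5 or Kdm5c siRNA replicate 1 or 5 of day 0 (adjusted p 0.0714 to 0.11). Pxn, paxillin, had 173 ± 1.29 CPM with Kdm5c siRNA and 163 ± 2.7 in scramble on day −1, a log2 difference of 0.09 (adjusted p = 0.000506, SE 0.02). Its day 0 value of 0.06 (adjusted p = 0.0208) was not called without scramble replicate 2 or 5 or Kdm5c siRNA replicate 1 or 4 (adjusted p 0.0559 to 0.0848). Without a filter on low counts, and with only the libraries compared, the day 0 calls of Ptk2 and Pxn were lost too (adjusted p up to 0.185 and 0.27).

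Of the proteins of mature adhesions and stress fibres, the LIM proteins Zyx, Lpp and Pdlim7 were called higher on all 3 days. Zyx, zyxin, had 982 ± 43.9 CPM with Kdm5c siRNA and 859 ± 28.6 in scramble on day −2, 756 ± 21.7 with Kdm5c siRNA and 648 ± 9.57 in scramble on day −1, and 547 ± 14.7 with Kdm5c siRNA and 502 ± 34.2 in scramble on day 0, with log2 fold changes of 0.20, 0.22 and 0.13 (SE 0.03 each). Lpp, a relative of zyxin, had 418 ± 12.7 CPM with Kdm5c siRNA and 358 ± 9.92 in scramble on day −2, 402 ± 13.6 with Kdm5c siRNA and 340 ± 9.71 in scramble on day −1, and 424 ± 7.97 with Kdm5c siRNA and 387 ± 9.44 in scramble on day 0. Its log2 fold changes were 0.23, 0.24 and 0.14 (SE 0.02 each). Pdlim7, a PDZ and LIM protein, was higher by 0.10, 0.17 and 0.08 (SE 0.03 each, edgeR adjusted p = 0.0134, 4.64e-05 and 0.0342). Its day 0 call was lost without scramble replicate 2, 4 or 5 or Kdm5c siRNA replicate 1, 2 or 4 (adjusted p 0.0555 to 0.121). That call was lost as well without a filter on low counts and with only the libraries compared. Vasp, an actin polymerase that zyxin recruits, was not called on any day, with log2 fold changes of −0.03, 0.01 and 0.03.

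The tensins, which bind beta tails and actin in fibrillar adhesions, did not share a direction. Tns3 had 245, 251, 242, 239 and 236 CPM with Kdm5c siRNA on day −2, against 225, 234, 226, 232 and 231 CPM in scramble. On day −1 it had 228, 217, 224, 226 and 227 CPM with Kdm5c siRNA, against 225, 216, 218, 226 and 217 CPM in scramble. On day 0 it had 240, 233, 246, 248 and 246 CPM with Kdm5c siRNA, against 260, 272, 272, 267 and 263 CPM in scramble. The Kdm5c siRNA libraries all lay above scramble on day −2, overlapped with it on day −1 and all lay below it on day 0. The log2 fold change was 0.08 on day −2 (SE 0.02, edgeR adjusted p = 0.00424), 0.03 on day −1 (adjusted p = 0.352) and −0.14 on day 0 (adjusted p = 7.55e-06, SE 0.02). Tns1 was called higher on day −2, at 0.08 (adjusted p = 0.0266), which was lost without scramble replicate 1, 2 or 3 or Kdm5c siRNA replicate 2 or 3 (adjusted p 0.057 to 0.115). Tns2 was called lower on day −2, at −0.10 (adjusted p = 0.0182), which was lost without scramble replicate 1 or 3 or Kdm5c siRNA replicate 2 or 3 (adjusted p 0.0516 to 0.0646).

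The difference between the siRNA effects of 2 days was tested directly. These tests share libraries with each other and with the effects given above. From day −2 to day −1 the effect changed upward in 6 members, Itga3, Itga5, Itga7, Cd44, Actn4 and Flna, and downward in 1, Tns1, beside 2.14% and 1.42% of all genes (3.56% in either direction). Of these, the change was 0.38 in Itga3 (SE 0.06, edgeR adjusted p = 3.98e-05), 0.56 in Itga7 (adjusted p = 0.0163, SE 0.14) and 0.18 in Itga5 (adjusted p = 0.000496, SE 0.03) on the log2 scale. The Actn4 and Flna calls were each lost without any 1 of 14 libraries (adjusted p 0.0518 to 0.0844 and 0.0503 to 0.0971), and the Tns1 call without any 1 of 6 (adjusted p 0.0514 to 0.0639). Under upper-quartile scaling the Actn4 and Flna calls were lost too, and the Actn4 call was lost without a filter on low counts. With scramble day −1 reduced to replicates 4 and 5, Itga3 (0.27, adjusted p = 0.00928) and Itga5 (0.17, adjusted p = 0.0148) were the 2 members still called. The change was then 0.59 in Itga7, 0.14 in Cd44, 0.07 in Actn4, 0.10 in Flna and −0.09 in Tns1, with fewer libraries behind it (adjusted p 0.0641 to 0.304).

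From day −2 to day 0 the effect changed upward in 10 members and downward in 3, beside 9.95% and 6.18% of all genes (16.1% in either direction). The upward ones were Itga2, Itga3, Itga5, Itgb5, Cd44, Tln1, Parva, Vcl, Actn4 and Flna, and the downward ones Tln2, Lims1 and Tns3. Cd44 changed by 0.33 (SE 0.04, edgeR adjusted p = 7.95e-07), Flna by 0.19 (adjusted p = 4.34e-05, SE 0.03) and Actn4 by 0.17 (adjusted p = 2.19e-05, SE 0.03). Tns3 changed by −0.22 (adjusted p = 4.81e-06, SE 0.03), so that the turn from higher to lower was itself past the threshold. The Itga2 change of 0.65 (adjusted p = 0.0388, SE 0.22) was lost without any 1 of 11 libraries (adjusted p 0.0505 to 0.145), and the Parva change of 0.08 (adjusted p = 0.0467) without any 1 of 19 (adjusted p 0.0501 to 0.087). Without a filter on low counts, the changes of Itga2, Parva and Tln1 were lost (adjusted p = 0.281 in Tln1). The Itga2 change was also lost with only the libraries compared. The Parva change was also lost with a replicate block and with scramble day −1 reduced to replicates 4 and 5. From day −1 to day 0 the effect changed upward in Vcl, by 0.11 (adjusted p = 0.0207), and downward in Tns3, by −0.16 (adjusted p = 0.000818), beside 4.06% and 1.81% of all genes (5.87% in either direction). The Vcl call was lost without scramble replicate 5 of day 0 (adjusted p = 0.0514) and without a filter on low counts. With scramble day −1 reduced to replicates 4 and 5, Vcl was not called (0.09, adjusted p = 0.154), while Tns3 still was (−0.16, adjusted p = 0.0133).

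Most of these transcripts also differed between the days, at a share in either direction close to that of all genes. In scramble, day 0 against day −2, 12 of the 35 were higher and 19 lower, beside 44.6% and 43.6% of all genes (88.2% in either direction). The libraries of the 2 days did not overlap in 29 members, beside 80.2% of all genes. The median log2 fold change of the 35 was −0.17, against 0.00 over all genes. Of the 13 integrin subunits, 6 were higher and 5 lower; of the 21 cytoplasmic proteins, 6 were higher and 13 lower. The siRNA effects of day −2 and day 0 share their scramble libraries with this comparison, so the values are set side by side and not correlated.

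Of the 13 integrin subunits tested, the collagen receptor subunits Itga11 and Itga10 rose most. Itga8, which was not tested, averaged 3.59 CPM in scramble on day 0, against 0.395 on day −2. Of the integrin subunits outside the 13 that are described last, Itgb2 averaged 8.59 CPM in scramble on day 0, against 1.77 on day −2. Itga2b averaged 9.25 CPM against 2.18, and Itgb7 was lower on day 0, with 0.838 CPM against 3.58. Itga11 averaged 55 ± 6.39 CPM in scramble on day 0, against 11.4 ± 0.704 on day −2, a log2 fold change of 2.23 (SE 0.09, edgeR adjusted p = 3.72e-22), and Itga10 rose by 1.54 (adjusted p = 6.03e-10, SE 0.17). Itgb5 rose by 0.62, Itgb3 by 0.60 and Itgb8 by 0.52. Itga3 fell by 1.61 (adjusted p = 3.07e-27, SE 0.04), Itga6 by 1.08, Itga5 by 0.94 and Itgb1 by 0.72 on the log2 scale, while Itgav was not called (−0.01, adjusted p = 0.804). Cd44 fell by 1.23 (SE 0.03). The siRNA effect on day 0 beside these was 0.03 for Itga11, 0.43 for Itga10, 0.59 for Itga3, 0.12 for Itga6, 0.15 for Itga5, 0.11 for Itgb1 and 0.42 for Cd44.

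Of the cytoplasmic proteins, Tns2 rose most, with 203 ± 4.99 CPM in scramble on day 0 against 69 ± 3.24 on day −2 and a log2 fold change of 1.52 (SE 0.03, edgeR adjusted p = 1.39e-30). Tns1 rose by 0.52 and Tns3 by 0.18, so all 3 tensins were higher on day 0. The alpha-actinins Actn4 and Actn1 fell by 1.17 and 0.89, Bcar1 by 1.01, Zyx by 0.81, Parva by 0.74, Flna by 0.70, Vcl by 0.57 and Tln1 by 0.56. Flnc fell by 0.07 (adjusted p = 0.000924, SE 0.02), which was not called under upper-quartile scaling or limma (adjusted p up to 0.663), and Ilk (0.03) and Lims1 (−0.05) were not called. The rise of Vasp by 0.06 (adjusted p = 0.028) was lost without scramble replicate 2 or 5 of day −2 or replicate 1, 3 or 4 of day 0 (adjusted p 0.0613 to 0.163). That rise was also not called without a filter on low counts or with only the libraries compared (adjusted p up to 0.572).

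**Figure D4:**
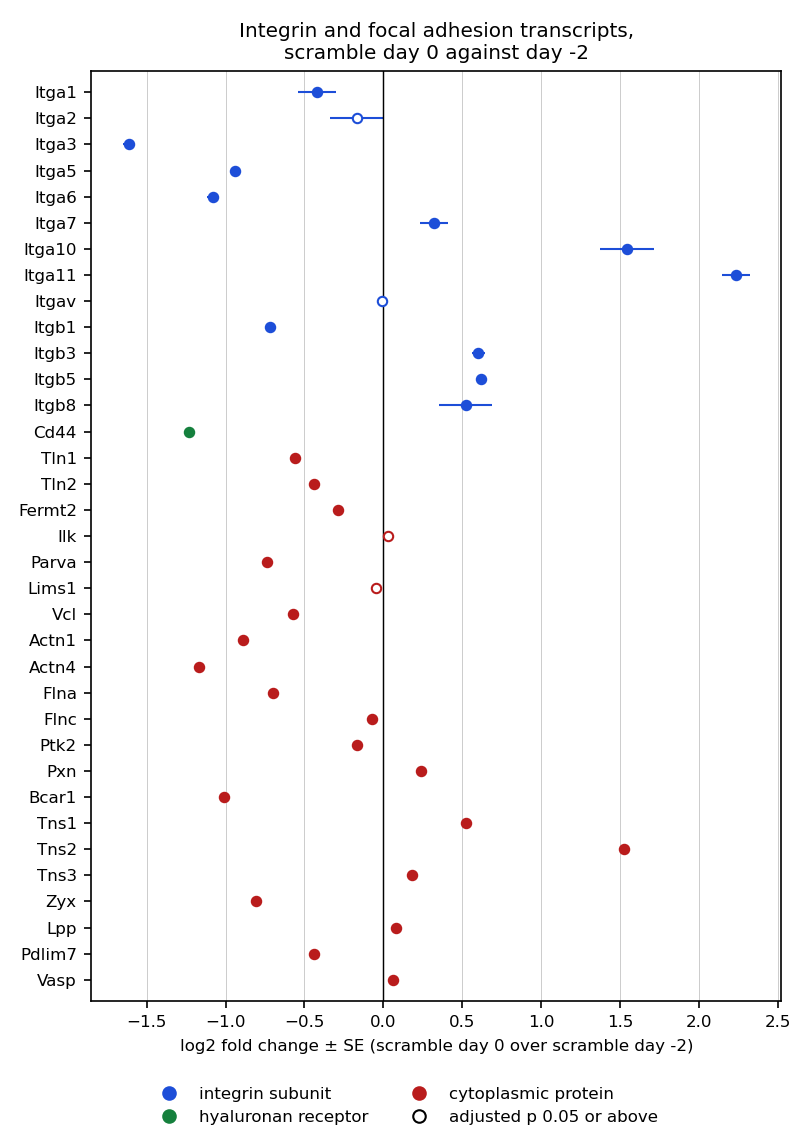
Log2 fold change of scramble day 0 over scramble day −2 with its standard error for the 35 tested members; filled points were called by edgeR at an adjusted p under 0.05. Itga11, Itga10 and Tns2 lie above 1.5, and Itga3, Cd44, Actn4, Itga6 and Bcar1 lie below −1.

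Of 83 further genes of focal adhesions and their signalling, 69 were in the count table. On day −2, 14 (20.3%) were higher and 11 (15.9%) lower, beside 11.3% and 11.9% of all genes. On day −1, 24 (34.8%) were higher and 14 (20.3%) lower, beside 18.8% and 16.8%, and on day 0, 21 (30.4%) were higher and 13 (18.8%) lower, beside 19.3% and 16.2%. Each share was above that of all genes, by more among those called higher than among those called lower. Their median log2 fold changes were 0.01, 0.01 and 0.03, against 0.08, 0.11 and 0.13 for the 35. Among those higher on each day were Fblim1, a filamin-binding LIM protein (0.21, 0.29 and 0.22), Palld, the actin crosslinker palladin (0.22, 0.30 and 0.26), and Cdc42, a small GTPase (0.11, 0.05 and 0.07). Tes, a LIM protein that binds zyxin, and Parvb, beta-parvin, were called on day −1 and day 0 (0.28 and 0.24, and 0.13 and 0.27). The 5 genes lower on each day were Itga2b, described last, Arhgef7, the exchange factor beta-PIX (−0.46, −0.39 and −0.33), Map4k4, a kinase that promotes adhesion turnover (−0.37, −0.34 and −0.19), the adaptor Grb2 (−0.23, −0.10 and −0.17) and the LIM protein Limd1 (−0.11, −0.09 and −0.19). Synm, the intermediate filament protein synemin, was lower on day −1 and day 0 (−0.71 and −0.55), as was Git2, the partner of beta-PIX (−0.12 on both days). In levels, Arhgef7 averaged 55.9 ± 0.585 CPM with Kdm5c siRNA and 77.2 ± 0.589 in scramble on day −2, and Map4k4 363 ± 2.82 with Kdm5c siRNA and 470 ± 3.78 in scramble.

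That list also held 3 integrin subunits with a place in the count table, which are named here after their values were seen. Itga2b, the alpha subunit of the platelet fibrinogen receptor, was called lower on all 3 days, at −0.39, −0.39 and −0.35 on the log2 scale (edgeR adjusted p = 0.0279, 0.00174 and 0.000888), while 0 of the 13 integrin subunits above were called lower in an siRNA comparison. It averaged 1.67 ± 0.344 CPM with Kdm5c siRNA and 2.18 ± 0.12 in scramble on day −2, and 7.26 ± 0.812 with Kdm5c siRNA and 9.25 ± 0.819 in scramble on day 0. The groups overlapped on day −2 and day 0 and were apart on day −1. Itgb2, the beta subunit of leukocyte integrins, was called higher on day 0, at 0.27 (adjusted p = 0.00467), and not on day −2 (−0.33) or day −1 (−0.21). Itgb7, a beta subunit known from lymphocytes, was called higher on day −1 and day 0, at 0.55 and 0.65 (adjusted p = 0.00125 and 0.00999), and not on day −2 (0.19). The Itga2b call of day −2 was lost without any 1 of 5 libraries, scramble replicate 1 or 5 or Kdm5c siRNA replicate 1, 2 or 4 of that day (adjusted p 0.051 to 0.114). With scramble day −1 reduced to replicates 4 and 5, the day −1 calls of Itga2b (−0.33, adjusted p = 0.0753) and Itgb7 (0.41, adjusted p = 0.0647) were lost. The day 0 calls of the 3 genes held in every alternative that gave a value for the gene, 39 for Itgb7 and 40 for Itga2b and Itgb2.

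Promoters of 31 of the 38 genes, 38 sequences in all, were in the RefSeq table. The TEAD word, GGAATG or CATTCC, was found in 8 of the 38 sequences, at 7 genes (Actn4, Flna, Flnc, Itga10, Itgb1, Lpp and Vcl), and in 14.66% of 32851 mouse promoters of the same length. The AP-1 word TGANTCA was found in 4 of the 38, at Actn4, Itga3, Itga9 and Zyx, and in 7.81% of promoters, and the CArG box in 2 of the 38, at Fermt2 and Vcl, and in 1.63%. Both strands were searched, and none of the matches printed above overlap. For Itga3 the match lay in the promoter of its second start and not in the one printed. A match describes the letters of the window and shows no binding.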

How the data were processed

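Strand-specific mRNA libraries of 3T3-L1 cells were analysed from 2 tables. The submitters' processing notes name GRCm38, edgeR 3.26.8 and STAR 2.7.2a without a role. Which counter, strand setting and annotation were used is not given in the sources at hand. CPM (reads per 1000000 reads of a library) were deposited by the authors for 55573 genes. These values equalled whole reads divided by the library total in 100.0% of nonzero values, within 0.05 reads. The table that the authors deposited as normalized counts held raw counts, equal to those reads, for 12016 genes. These were the genes with a CPM of at least 1 in at least 20 libraries. A library had 25217905 to 33725717 reads, and 99.73 to 99.8% of them were in the count table. Finding 0 reads allows 3 reads, or 0.089 to 0.119 CPM by library, for counting error only.

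A quasi-likelihood model (edgeR 4.0.16, R 4.3.3) with TMM scaling, full library totals and 6 group means was fitted to all 12016 genes in the 30 libraries. It left 24 residual degrees of freedom, and the common biological coefficient of variation was 0.0367. All tests were two-sided, p-values were adjusted by the Benjamini-Hochberg method over all genes of each comparison, and genes were called at an adjusted p under 0.05. The procedure was tested on simulated data. The single-gene check of Kdm5c was an exact permutation test in scipy 1.17.1.

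Symbols, coordinates and exon lengths came from GENCODE M21. Promoters (250 bases before to 50 after a start) came from RefSeq, GRCm38.p6. The members and lists were chosen with earlier results of these data known. Values of every library are given for members called with an absolute log2 fold change of at least 0.25 in an siRNA comparison and for members called in opposite directions. Flnc was added after its values were seen. Up to 4 genes with the smallest adjusted p in each direction per day are named from the other focal adhesion list. A gene that this rule selects is not reported here.

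Alternatives were DESeq2 1.42.0, median-of-ratios and upper-quartile scaling, no filter on low counts (32318 genes), a stricter filter of 5 CPM or more in 5 libraries (10647 genes), limma 3.58.1 on log2(CPM + 0.5) or log2(CPM + 2), the libraries compared alone, a replicate block and each library left out. Reducing the scramble day −1 group to replicates 4 and 5 was added after seeing the data.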

Additional observations from a re-analysis of the deposited data

Results flagged for a closer look

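In 22 tests of whether the siRNA effect differed between 2 days, a member passed an edgeR adjusted p of 0.05. Of the 35 members tested each time, 7 passed for day −1 against day −2 and 13 for day 0 against day −2. For day 0 against day −1, 2 passed. Over all genes, the shares that passed were 3.56%, 16.1% and 5.87% in the same order. Several of these calls were lost without a single library or under another alternative, as given above. Day −1 against day −2, the effect moved upward in the integrins Itga3 (0.38 on the log2 scale, adjusted p = 3.98e-05), Itga5 (0.18, adjusted p = 0.000496) and Itga7 (0.56, adjusted p = 0.0163). It also moved upward in Cd44 (0.20, adjusted p = 0.00313), Actn4 (0.09, adjusted p = 0.0401) and Flna (0.11, adjusted p = 0.0408) and downward in Tns1 (−0.14, adjusted p = 0.0256).

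Day 0 against day −2, the effect moved upward in the integrins Itga2 (0.65), Itga3 (0.28), Itga5 (0.17) and Itgb5 (0.13), with adjusted p of 0.0388, 0.00105, 0.000267 and 0.00634. It also moved upward in Cd44 (0.33), Tln1 (0.08), Parva (0.08), Vcl (0.12), Actn4 (0.17) and Flna (0.19), and downward in Tln2 (−0.14), Lims1 (−0.14) and Tns3 (−0.22). Day 0 against day −1, it moved upward in Vcl (0.11, adjusted p = 0.0207) and downward in Tns3 (−0.16, adjusted p = 0.000818).

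A single library stood apart from the other 4 of its group in 7 of 210 groups of 5 by Dixon's test, against 10.5 that chance gives at 1 in 20. Each was in another library. Itga10 had 2.15 CPM in scramble day 0 replicate 3, against 3.27 to 3.69 in the others. Itgb1 had 1159 CPM in Kdm5c siRNA day −2 replicate 2, against 1103 to 1117. Lims1 had 101 CPM in Kdm5c siRNA day 0 replicate 2, against 108 to 109, and Lpp had 438 CPM in replicate 5 of that group, against 419 to 424. Flna had 3106 CPM in scramble day −1 replicate 1, against 3184 to 3214. Bcar1 had 248 CPM in scramble day −2 replicate 1, against 262 to 263. Vasp had 196 CPM in Kdm5c siRNA day −1 replicate 5, against 202 to 204.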

How the results depend on the processing

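Of 119 calls of members over the 7 comparisons, 96 were kept under every alternative that gave a value for the gene, and 0 changed direction. For the 96 these were 39 or 40 of the 40 alternatives. The stricter filter gave a value for 107 of the 119 calls, without the members at low levels, and DESeq2 for 118. With each library left out in turn, the members called numbered 16 to 20 on day −2, 21 to 23 on day −1, 21 to 27 on day 0 and 30 to 31 in the time course. For the change of the siRNA effect they numbered 4 to 7 (day −1 against day −2, the lowest without scramble day −2 replicate 3), 11 to 14 (day 0 against day −2) and 1 to 5 (day 0 against day −1). Over all genes the same counts were 2292 to 2889, 3721 to 4376, 3804 to 4326, 10510 to 10610, 288 to 537, 1661 to 2198 and 573 to 837. With scramble day −1 reduced to replicates 4 and 5, the genes called on day −1 numbered 2568 against 4272. The change of effect was then called in 2 members against 7 and 174 genes against 428 (day −1 against day −2), and in 447 genes against 705 (day 0 against day −1). Without a filter on low counts, 754 genes were called for day −1 against day −2 (336 upward and 418 downward, against 257 and 171). DESeq2 and upper-quartile scaling each called 4 members for day 0 against day −1, against 2. The cause of these differences was not tested. With a replicate block the 7 comparisons called 19, 21, 26, 31, 7, 12 and 2 members, and the Parva change was the call lost. Same-numbered libraries correlated at −0.25 to 0.33, and 1 to 3 of 10 libraries per comparison correlated best with their own number, so the numbers were not read as pairs. Itga1, Itga2, Itga10 and Itgb8, at a few CPM, had standard errors of 0.12 to 0.22 in the siRNA comparisons, and depth limits their precision.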
